A study of Mus musculus with 4 samples.

Results

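The genes described here are the protein-coding genes that were abundant in every library of a small RNA-seq series on mouse fetal oocytes. They were selected on the measured counts: a protein-coding nuclear gene of the GENCODE annotation had to reach at least 30 CPM (its count over the library total, times 1000000) in each of the 4 libraries, and symbols of large families (those starting with Rpl, Rps, Mrp, Nduf, Cox, Uqcr, Atp5, Psm, Eif, Snrp, Ube2, Polr, Cct, Prdx, Hist or Gm) were left out. Of 21884 protein-coding nuclear genes in the files, 19847 were eligible by symbol and 66 met the minimum in all 4 libraries. The CPM values chose the members, so their levels and their evenness across libraries are given as a description. The oocytes were germ cells sorted from fetal ovaries at E18.5 for SSEA-1, a surface marker of germ cells. The mothers, ICR mice, had eaten a normal diet (the ND group) or one high in fat (the HFD group) for 4 months before they were mated with males kept on ND. Each library was made with SMART-Seq2, an amplification method for small amounts of RNA, from 1 pool of oocytes of several fetuses. There were 2 libraries per diet, and nothing in the labels says whether pools of the same diet shared mothers, so every p-value measures the spread between these pools only.

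Genes that a cell needs in all states encode the actin and tubulin cytoskeleton, the chaperones that fold new proteins, the factors that elongate, bind and degrade mRNA, the histones and histone chaperones of chromatin, and the carriers of membrane traffic. They are commonly called housekeeping genes, and several of them serve as reference genes for RNA measurements. Fetal oocytes at this age are in the later stages of meiotic prophase, in which sister chromatids are held together by cohesin and homologous chromosomes recombine. Oocytes also store and regulate mRNA, so that RNA-binding proteins of the cytoplasm are a known feature of this cell type.

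Total counts were 8223255 and 7815015 with ND and 6456825 and 5723605 with HFD. TMM normalization, which scales libraries on the bulk of genes, used factors of 1.02 and 0.940 for ND replicates 1 and 2 and of 0.692 and 1.51 for HFD replicates 1 and 2, so that the 2 HFD libraries stood apart from each other. Values called normalized CPM below are CPM after TMM. Of the germ cell markers listed, 42 of 43 were in the files, and their summed CPM was 4194 and 9146 in ND and 8625 and 13025 in HFD. Markers of other ovarian cells were also counted: the 14 stromal genes summed to 2890 and 101.7 CPM in ND and 2556 and 9475 CPM in HFD, and none of them was at 0 in any library. The 16 pregranulosa genes summed to 412 and 424 CPM in ND and 26.2 and 2103 CPM in HFD, and the 9 endothelial genes to 30.04 and 80.1 CPM in ND and 717 and 52.6 CPM in HFD, with no gene at 0. Blood genes (8 of 9 in the files) reached 1976 CPM in ND replicate 1 and 4.49 to 25.5 CPM elsewhere, with 1 or 2 of the haemoglobin genes at 0 in every library, and the 10 macrophage genes stayed between 14.8 and 47.3 CPM, with C1qa or Lyz2 at 0 in the ND libraries. The part of these other cells in the results below was not tested, and in pooled cells a smaller number of cells of a type cannot be told apart from less RNA per cell.

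Presence in all 4 libraries was uncommon among abundant genes. Of 3313 eligible genes that reached 30 CPM in at least 1 library, 2387 (72.05%) did so in 1 library only, 674 (20.3%) in 2, 186 (5.61%) in 3 and 66 (1.99%) in all 4. The mean over the libraries was at least 30 CPM for 2662 eligible genes. Nearest above the minimum in their lowest library were Srpk1 (32.2 CPM), St13 (33.4 CPM) and Ric1 (33.6 CPM), and nearest below it were Ccdc85c (29.6 CPM), Dst (28.2 CPM) and Iqsec1 (27.4 CPM). Another 50 protein-coding genes met the minimum but had symbols that were left out, 32 of them Rpl or Rps genes of the ribosome. Of all counts the members held 5.62% and 7.25% with ND and 6.14% and 5.40% with HFD, with exact binomial 95% intervals of 5.60% to 5.63%, 7.23% to 7.27%, 6.12% to 6.16% and 5.38% to 5.42%. The lowest single count of a member was 191 (St13 in HFD replicate 2, exact Poisson 95% interval 165 to 220), so counting error was small beside the differences between libraries described below. Without molecular identifiers, these intervals describe counting error alone.

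**Figure D1:**
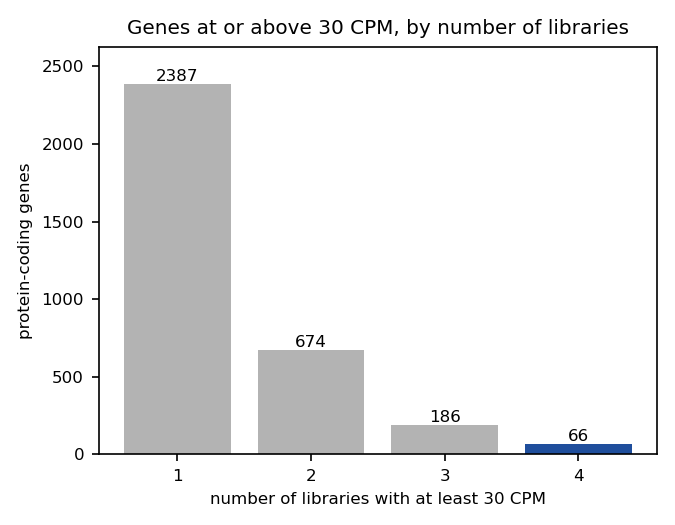
Number of eligible protein-coding genes (vertical axis) that reached 30 CPM in exactly 1, 2, 3 or 4 libraries (horizontal axis). The bar for 1 library stands at 2387 genes and the bar for all 4 libraries at 66.

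Levels between genes were compared per length, as TPM (counts per kilobase of exon, scaled to a common total). Over the members, the geometric mean TPM of the 4 libraries spanned from 2.09 (D10Wsu102e) to 2400.0 (Actb). The 10 highest by this measure were Actb (2400.0), Npm1 (2163), Mif (1929), Hsp90ab1 (1585), H3f3b (1378), Tmsb10 (1372), Hsp90aa1 (1247), Calm2 (1186), Sarnp (912) and Eef1b2 (874). Among them are 2 actin-binding or actin proteins, both cytosolic forms of HSP90, a histone, a nucleolar chaperone and a calcium sensor. Actb, β-actin, had TPM of 1549 and 1532 with ND and 3417 and 4091 with HFD. Npm1, the nucleolar histone chaperone nucleophosmin, had TPM of 3369.9 and 1111 with ND and 3188 and 1835 with HFD. Their order was not the same in every library, since Npm1 stood above Actb in ND replicate 1 only. Mif, a cytokine that is abundant in the cytoplasm of many cells, had TPM of 2669 and 6561 with ND and 623 and 1270.0 with HFD, and thus exceeded Actb in both ND libraries and stood below it in both HFD libraries. At the other end, Ttn and D10Wsu102e had 116825 and 123179 exonic bases and geometric means of 2.29 and 2.09 TPM, and were the only 2 members under 10 TPM. The coding sequence of D10Wsu102e has 555 bases, and where in its exons the reads lie was not examined.

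The cytoskeleton was the role with 11 members: Actb and Actg1 (cytoplasmic actins), Tmsb4x and Tmsb10 (thymosins, which bind actin monomers), Cfl1 (cofilin, which severs actin filaments), Arpc2 (a subunit of the ARP2/3 complex that branches filaments), Rdx (radixin, which ties actin to the membrane), Cdc42 (a small GTPase of cell polarity), Tubb5 (a β-tubulin), Dctn4 (a subunit of dynactin, which serves the dynein motor) and Ttn (titin, the giant protein of the muscle sarcomere). Tmsb10 was the most even of all members, with normalized CPM of 1129 and 682 with ND and 934 and 622 with HFD. Tmsb4x had normalized CPM of 106 and 564 with ND and 458 and 159 with HFD. The groups of both thymosins overlapped between diets. Arpc2 had normalized CPM of 80.8 and 72.7 with ND and 173 and 425 with HFD, and Rdx had 357 and 44.6 with ND and 1329 and 2189.6 with HFD. For both genes each HFD library lay above each ND library. Cfl1 went the other way, at 2732 and 2304 with ND and 217 and 151 with HFD. Tubb5, Cdc42 and Dctn4 shared a pattern in which HFD replicate 1 was the highest library and HFD replicate 2 the lowest: Tubb5 had 2195 and 127 normalized CPM there, Cdc42 2249 and 158 and Dctn4 3247 and 198. In CPM per library total, Tubb5 was highest in ND replicate 1 (1595, beside 1496 in HFD replicate 1). On that scale Dctn4 was lowest in ND replicate 2 (208, beside 289 in HFD replicate 2). Ttn was far higher in HFD replicate 1, with normalized CPM of 65.3 and 59.1 with ND and 653 and 97.0 with HFD, while the other 3 libraries lay close together.

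Protein folding and turnover had 8 members. Hsp90aa1 and Hsp90ab1, the 2 cytosolic HSP90 chaperones, Hspa8, the constitutive cytosolic HSP70, and Hspa9, its mitochondrial relative, were joined by St13, a partner of HSP70, Ppia, the peptidyl-prolyl isomerase cyclophilin A, Skp1a, a subunit of SCF ubiquitin ligases, and Hsf2, a heat shock transcription factor. Hsp90aa1 had normalized CPM of 1719 and 4022 with ND and 2270.3 and 1755 with HFD, and Hspa8 had 1187 and 1347 with ND and 124 and 676 with HFD. Hspa8 was lower in each HFD library than in each ND library, whereas Hsp90aa1 overlapped. Skp1a, with normalized CPM of 1091 and 3594 with ND and 441 and 333 with HFD, was also lower in each HFD library. St13 was 1 of the least even members, with normalized CPM of 1647 and 50.7 with ND and 1171 and 22.9 with HFD, being high in replicate 1 and low in replicate 2 of both diets. Hsf2, with normalized CPM of 109.6 and 55.7 with ND and 815 and 31.6 with HFD, was high in HFD replicate 1 alone.

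Translation and the handling of mRNA in the cytoplasm had 9 members. Eef1a1 and Eef1b2 belong to the elongation factor that brings aminoacyl-tRNA to the ribosome, and Tpt1 is the translationally controlled tumour protein. Pabpc1 binds the poly(A) tail, Pan3 serves the PAN2-PAN3 deadenylase, Ythdf2 reads m6A and leads mRNA to decay, and Pcbp2 and Serbp1 bind mRNA. Serbp1 was among the most even members, with normalized CPM of 423 and 686 with ND and 829 and 729 with HFD. On this scale it was slightly higher in both HFD libraries, and in CPM per library total the groups overlapped. Eef1a1 was the least even member, with normalized CPM of 3514 and 5125 with ND and 1302 and 43.3 with HFD, with 1 HFD library far below all others. Tpt1, with normalized CPM of 422 and 2517 with ND and 323 and 272 with HFD, was lower in both HFD libraries, but the ND libraries differed between themselves more than ND replicate 1 differed from HFD. Pabpc1, Pan3, Pcbp2, Ythdf2 and Eef1b2 overlapped between diets, except that Pcbp2 was lower in both HFD libraries in CPM per library total, and each of these 5 had its lowest normalized CPM in HFD replicate 2.

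Nuclear RNA processing had 5 members: Ddx5 (an RNA helicase), Hnrnpa2b1 (a heterogeneous nuclear ribonucleoprotein), Rbm39 (a splicing factor), Srpk1 (the kinase of SR splicing proteins) and Sarnp (a protein of mRNA export). Ddx5 had normalized CPM of 1667 and 458 with ND and 381 and 488 with HFD, Hnrnpa2b1 had 315 and 1478 with ND and 1584 and 217 with HFD and Rbm39 had 43.9 and 1666 with ND and 451 and 247 with HFD. The diets overlapped for all 3. Srpk1 was low in every library, with normalized CPM of 32.4 and 60.3 with ND and 149 and 129.7 with HFD, and lay higher in both HFD libraries. Sarnp is described with the diet comparison.

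Chromatin and the nucleolus had 10 members. H2afz and H3f3b encode the replication-independent histones H2A.Z and H3.3. Anp32b and Ptma (prothymosin alpha) are acidic nuclear proteins that bind histones, Hmgb1 bends DNA, Smarca5 is the ATPase of ISWI remodellers, Atad2 is a bromodomain ATPase and Spin1 reads methylated histone H3. Npm1 is the nucleolar chaperone named above, and Rrn3 recruits RNA polymerase I to ribosomal DNA. H3f3b had normalized CPM of 1985 and 5772 with ND and 1899 and 619 with HFD. Both H3f3b and H2afz were highest in ND replicate 2 and lowest in HFD replicate 2. For H3f3b the HFD values lay below the ND values, except that they overlapped with RLE size factors. Ptma had normalized CPM of 759 and 37.1 with ND and 3232 and 649 with HFD and Anp32b had 37.6 and 694 with ND and 3327 and 46.5 with HFD. Both were at their highest in HFD replicate 1, and each had an ND library under 40 normalized CPM. In CPM per library total the groups of Ptma did not overlap, with HFD higher. Hmgb1 was low throughout, with normalized CPM of 35.2 and 40.5 with ND and 156 and 68.7 with HFD. Atad2 and Smarca5 were likewise highest in HFD replicate 1 and lowest in HFD replicate 2, where Atad2 had 668 and 29.7 normalized CPM and Smarca5 1370.2 and 106. In CPM per library total, Smarca5 was lowest in ND replicate 2 (120, beside 155 in HFD replicate 2). Spin1 was more even, with normalized CPM of 612 and 162 with ND and 805 and 664 with HFD, with HFD higher on this scale and an overlap in CPM per library total.

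Chromosome cohesion and recombination had 3 members, 2 of which were among the 6 most even on normalized CPM. Smc1b, a cohesin subunit used in meiosis, was the only 1 of 42 listed germ cell genes in the files that met the minimum in all libraries. It had normalized CPM of 157 and 298 with ND and 343 and 438 with HFD. Wapl, which releases cohesin from chromatin, had 479 and 552 with ND and 785 and 965 with HFD. In each of these genes both HFD libraries lay above both ND libraries, by less than the size of the standard error: Wapl had a log2 fold change of 0.76 (SE 1.74, adjusted p = 0.918) and Smc1b a log2 fold change of 0.78 (SE 1.58, adjusted p = 0.902). In CPM per library total the groups of Smc1b overlapped. The ratio of the highest to the lowest library was then 2.95 for Wapl and 4.10 for Smc1b. Members such as Tmf1 (1.95), Actb (2.62) and Npm1 (2.82) were more even on that scale. Sfr1, a partner of the recombinase machinery, was high in ND replicate 2 alone, with normalized CPM of 212 and 3080.4 with ND and 338 and 71.6 with HFD. Other defining germ cell genes missed the minimum in at least 1 library. Dazl, an RNA-binding protein of germ cells, had 1733 and 3770.3 CPM in ND and 453 and 8.56 CPM in HFD. Sycp3, of the synaptonemal complex, had 205 and 3.45 CPM in ND and 303 and 2.97 CPM in HFD. Ddx4, a germ cell RNA helicase, stayed between 0.774 and 12.4 CPM. These genes do not stand for the list, whose summed CPM was largest in HFD replicate 2 (13025). Of 40 listed germ cell genes tested by edgeR, 6 were higher and 5 lower in HFD at an unadjusted p under 0.05. The same held for 4.82% and 6.41% of all genes tested.

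Signalling, membranes and transport had 12 members. Calm2 encodes the calcium sensor calmodulin, and Ywhae is a 14-3-3 protein. Gdi2 extracts RAB GTPases from membranes, Arl8b is a GTPase of lysosomes, Ric1 activates RAB6, Tmf1 is a Golgi coiled-coil protein, Kdelr2 returns proteins from the Golgi to the endoplasmic reticulum, Vapa tethers membranes to the endoplasmic reticulum, B4galt1 is a galactosyltransferase of the Golgi, Slc39a1 imports zinc and Notch2 is a receptor. Calm2 had normalized CPM of 1576 and 1333 with ND and 903 and 230.4 with HFD and was lower in both HFD libraries, with a log2 fold change of -1.36 (SE 1.91, adjusted p = 0.842). Kdelr2 had normalized CPM of 1201 and 595 with ND and 2768 and 41.1 with HFD, and Notch2 had 1224 and 263 with ND and 1086 and 28.3 with HFD. Ywhae had 1302 and 317 with ND and 1517 and 76.7 with HFD. In these 3 genes HFD replicate 2 was by far the lowest library and HFD replicate 1 was high. Arl8b, with normalized CPM of 49.9 and 287 with ND and 328 and 1684 with HFD, was the reverse, with HFD replicate 2 the highest, and its groups overlapped in CPM per library total. Ric1, with normalized CPM of 501 and 669 with ND and 49.3 and 282 with HFD, was lower in each HFD library. Tmf1, Slc39a1, Gdi2 and Vapa had ratios of the highest to the lowest library of 3.05, 6.70, 5.17 and 15.2 and overlapped between diets, except that Tmf1 was lower in both HFD libraries in CPM per library total.

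Metabolism, mitochondria and redox had 4 members, namely Mif, Sod1 (cytosolic superoxide dismutase), Minos1 (a subunit of the complex that shapes the mitochondrial inner membrane) and Ogdhl (a relative of the oxoglutarate dehydrogenase of the citric acid cycle). Mif had normalized CPM of 925 and 2646 with ND and 279 and 298 with HFD. Both HFD libraries were below both ND libraries. Sod1 had normalized CPM of 949.9 and 2935 with ND and 2277 and 176 with HFD and Minos1 had 131 and 2499 with ND and 1069 and 1105 with HFD, and both overlapped. None of 16 listed glycolysis genes was a member, and 9 of them reached 30 CPM in at least 1 library. Transcription factors were represented by Nfia, with normalized CPM of 996 and 131 with ND and 399 and 423 with HFD, and by Qrich1, described below. No role was assigned to 8030462N17Rik and D10Wsu102e. The former had normalized CPM of 1201 and 1861 with ND and 2266 and 25.0 with HFD, a single low library beside 3 high ones.

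The lists of housekeeping functions were represented by few of their genes. Of 31 listed chaperones 5 were members, of 36 cytoskeletal genes 7, of 41 RNA-binding and hnRNP genes 6, of 30 chromatin genes 5, of 30 signalling genes 4, of 13 elongation and nascent chain genes 3, and 1 each of 15 nucleolar, 17 redox and 21 ubiquitin genes. None of 24 secretion genes was a member. Most genes of these lists were abundant somewhere: 23 of the chaperones, 27 of the cytoskeletal genes, 37 of the RNA-binding genes and 24 of the chromatin genes reached 30 CPM in at least 1 library. No listed gene passed an adjusted p of 0.05 between the diets by edgeR. At an unadjusted p under 0.05, 3 chaperones were higher and 4 lower in HFD of 30 tested, and 4 cytoskeletal genes higher and 5 lower of 34. For RNA-binding genes it was 1 higher and 4 lower of 41, and for chromatin genes 0 and 6 of 28. The redox list had 0 higher and 7 lower of 15, ubiquitin 4 and 4 of 21, and glycolysis 0 and 3 of 16. Signalling had 2 higher and 4 lower of 29, secretion 3 and 3 of 24, the nucleolus 1 and 1 of 13, and elongation 0 and 0 of 13. These compare with 4.82% of all genes tested higher and 6.41% lower. None of these genes was a member.

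Evenness across libraries was measured as the ratio of the highest to the lowest normalized CPM of a gene. Its median over the 66 members was 10.8, with a range of 1.81 to 118. The ratio was under 2 for 2 members, under 3 for 7, under 5 for 13 and under 10 for 31, and it was over 20 for 20. Among the most even members were Tmsb10 (1.81), Serbp1 (1.96), Wapl (2.01), Hsp90aa1 (2.34) and Smc1b (2.79). The least even were Eef1a1 (118), 8030462N17Rik (90.6), Anp32b (88.4), Ptma (87.1), St13 (72.0) and Kdelr2 (67.4). This order moved with the scaling. In CPM per library total Tmf1 (1.95), Actb (2.62) and Npm1 (2.82) were more even than Wapl (2.95) and Smc1b (4.10). On that scale Qrich1 (87.3) was less even than Eef1a1 (74.6). A minimum in every library bounds this ratio from above for a gene of a given level, so it was not compared with genes outside the rule. The 50 genes that met the same minimum but were left out by symbol had a median ratio of 9.89 and a range of 1.64 to 104.

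**Figure D2:**
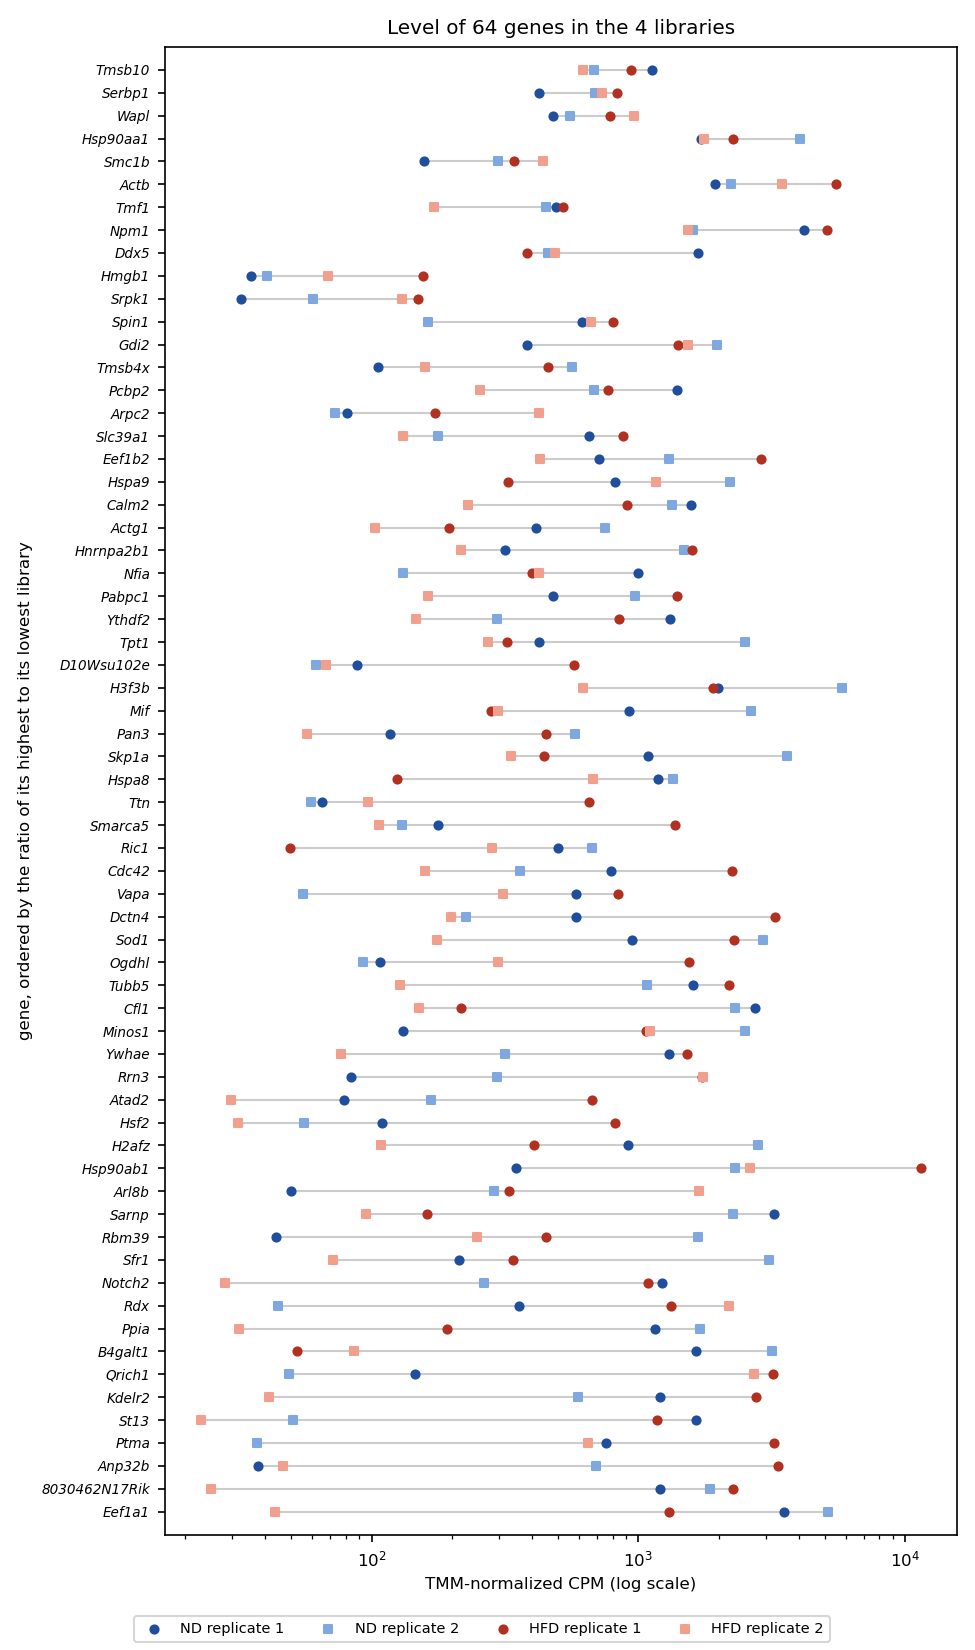
Normalized CPM (horizontal axis, log scale) of 64 of the genes (rows) in the 4 libraries, with 1 point per library and a grey line from the lowest to the highest. Rows run from the most even gene at the top (Tmsb10, ratio 1.81) to the least even at the bottom (Eef1a1, ratio 118).

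Single libraries were also compared in pairs, as the higher over the lower normalized CPM. The ratio of the 2 ND libraries had a median of 2.46 over the members and reached 38.0 (Rbm39), and the ratio of the 2 HFD libraries had a median of 3.45 and reached 90.6 (8030462N17Rik). Between an HFD and an ND library the median was 2.88 and 3.96 for HFD replicate 1 (against ND replicates 1 and 2) and 3.24 and 3.82 for HFD replicate 2. By role, the median ratio of the highest to the lowest library was smallest for the 3 cohesion and recombination genes (2.79, with a range of 2.01 to 43.0). Nuclear RNA processing (7.31) and translation and mRNA (8.56) followed. The median was 11.1 for the cytoskeleton, 16.9 for chromatin and the nucleolus and 18.3 for protein folding. In CPM per library total the ratio was 2.95 for Wapl, 4.10 for Smc1b and 27.1 for Sfr1. A median of 3 genes describes those genes and not a class. The highest library was HFD replicate 1 for 28 members and ND replicate 2 for 21, and the lowest was HFD replicate 2 for 33. These counts moved with the scaling. In CPM per library total HFD replicate 1 was highest for 15 members, ND replicate 2 for 21, and HFD replicate 2 was lowest for 22. The median normalized CPM of the members was 598 and 681 in ND and 834 and 239 in HFD, and the median CPM per library total was 595 and 627 in ND and 569 and 349 in HFD.

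The comparison of HFD with ND asked whether maternal diet was accompanied by a difference in these genes. By edgeR's quasi-likelihood test with Benjamini-Hochberg adjustment over 19335 genes, no member was called at an adjusted p under 0.05 and a fold change over 1.5, beside 0.00% of all genes tested. The smallest adjusted p was 0.406 among the members and also among all genes. No member had an unadjusted p under 0.05, although 4.82% of all genes tested did so with higher and 6.41% with lower values in HFD. The smallest unadjusted p of a member was 0.0633 (B4galt1). Of the 66 log2 fold changes 32 were above 0 and 34 below, with a median of -0.07 beside 0.03 over all genes tested. Their median size was 1.33, beside 0.70 over all genes, and their median standard error was 1.99, beside 0.75. For 1 gene at a time, an exact permutation test of 2 libraries against 2 cannot give a p below 0.333.

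For 16 members (24.2%) each HFD value exceeded each ND value, beside 16.1% of all genes tested, and for 15 members (22.7%) each HFD value was below each ND value, beside 17.8%. This split held for 12 higher and 13 lower members in all 3 scalings tried (TMM, RLE and CPM per library total). For all genes tested, the share that held in all 3 was not counted, so these 2 counts are not a sign of stability. With RLE, 24.2% of members were higher and 21.2% lower, beside 16.0% and 17.8% of all genes tested. In CPM per library total it was 21.2% and 24.2%, beside 13.9% and 13.4%. By role, each HFD value exceeded each ND value for 4 and was below for 2 of the 11 cytoskeletal members, for 3 and 2 of the 10 of chromatin and the nucleolus, for 1 and 3 of the 8 of protein folding, for 1 and 3 of the 9 of translation and mRNA, and for 2 and 3 of the 12 of signalling, membranes and transport. Among those higher in HFD, the largest log2 fold changes belonged to Qrich1, Ogdhl, Rrn3, Rdx and Ttn. Among those lower in HFD, they belonged to B4galt1, Sarnp, Cfl1, Ppia and H2afz. None of these 10 changed direction in any alternative fit. They were picked for groups that do not overlap, so leaving out 1 library could hardly turn their direction. Their sizes moved when 1 library was left out. Without HFD replicate 1 the log2 fold change was 0.64 for Ttn and 1.57 for Ogdhl, and without ND replicate 2 it was -1.80 for H2afz. That of Rdx was 5.30 without ND replicate 1 and 2.30 without ND replicate 2. Over the 4 libraries left out in turn, it ran from 4.37 to 5.91 for Qrich1, 2.56 to 4.39 for Rrn3, -5.51 to -4.57 for B4galt1, -4.84 to -4.03 for Sarnp, -4.06 to -3.48 for Cfl1 and -5.50 to -2.84 for Ppia.

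Qrich1 (chr9:108516806-108560163, plus strand, GRCm38), a transcription factor of the response to unfolded proteins, had normalized CPM of 145 and 49.2 with ND and 3205 and 2711 with HFD. Both HFD libraries were high and close to each other and both ND libraries were low, with means of 97.1 ± 67.7 in ND and 2958 ± 349.6 in HFD (SD, n = 2) and a log2 fold change of 4.93 (SE 2.25, adjusted p = 0.406). Rrn3 (chr16:13780708-13814839, plus strand) showed the same arrangement, with normalized CPM of 83.6 and 295 with ND and 1726 and 1748 with HFD, with a log2 fold change of 3.20 (SE 2.02, adjusted p = 0.537). Its HFD libraries differed by less than its ND libraries. Ogdhl (chr14:32322019-32348151, plus strand) had normalized CPM of 108 and 92.9 with ND and 1549 and 297 with HFD and a log2 fold change of 3.20 (SE 1.94, adjusted p = 0.515). Here the ND libraries were close and the HFD libraries were 5.22-fold apart. Rdx had a log2 fold change of 3.13 (SE 2.15, adjusted p = 0.582), and Ttn had a log2 fold change of 2.59 (SE 1.73, adjusted p = 0.566), on the values given with the cytoskeleton.

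B4galt1 (chr4:40804602-40854005, minus strand), the Golgi galactosyltransferase, had normalized CPM of 1649 and 3168 with ND and 52.5 and 86.1 with HFD. Both ND libraries were far above both HFD libraries, with means of 2409 ± 1074 in ND and 69.3 ± 23.8 in HFD (SD, n = 2) and a log2 fold change of -5.12 (SE 2.19, adjusted p = 0.406). Sarnp (chr10:128817333-128877629, plus strand), of mRNA export, had normalized CPM of 3233 and 2258 with ND and 161 and 95.7 with HFD. The pattern was the same, with means of 2745 ± 689 in ND and 129 ± 46.4 in HFD (SD, n = 2) and a log2 fold change of -4.42 (SE 2.14, adjusted p = 0.415). For Cfl1 (chr19:5490455-5495201, plus strand), both pools of a diet were close, with means of 2518 ± 302 in ND and 184 ± 46.7 in HFD (SD, n = 2) and a log2 fold change of -3.77 (SE 2.05, adjusted p = 0.463). Ppia (chr11:6415443-6419817, plus strand) had normalized CPM of 1157 and 1709 with ND and 192 and 31.7 with HFD and a log2 fold change of -3.68 (SE 2.11, adjusted p = 0.486). H2afz (chr3:137864487-137866922, plus strand) had normalized CPM of 915 and 2812 with ND and 405 and 109 with HFD and a log2 fold change of -2.86 (SE 2.08, adjusted p = 0.606). In both genes the HFD libraries were low and also unequal.

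**Figure D3:**
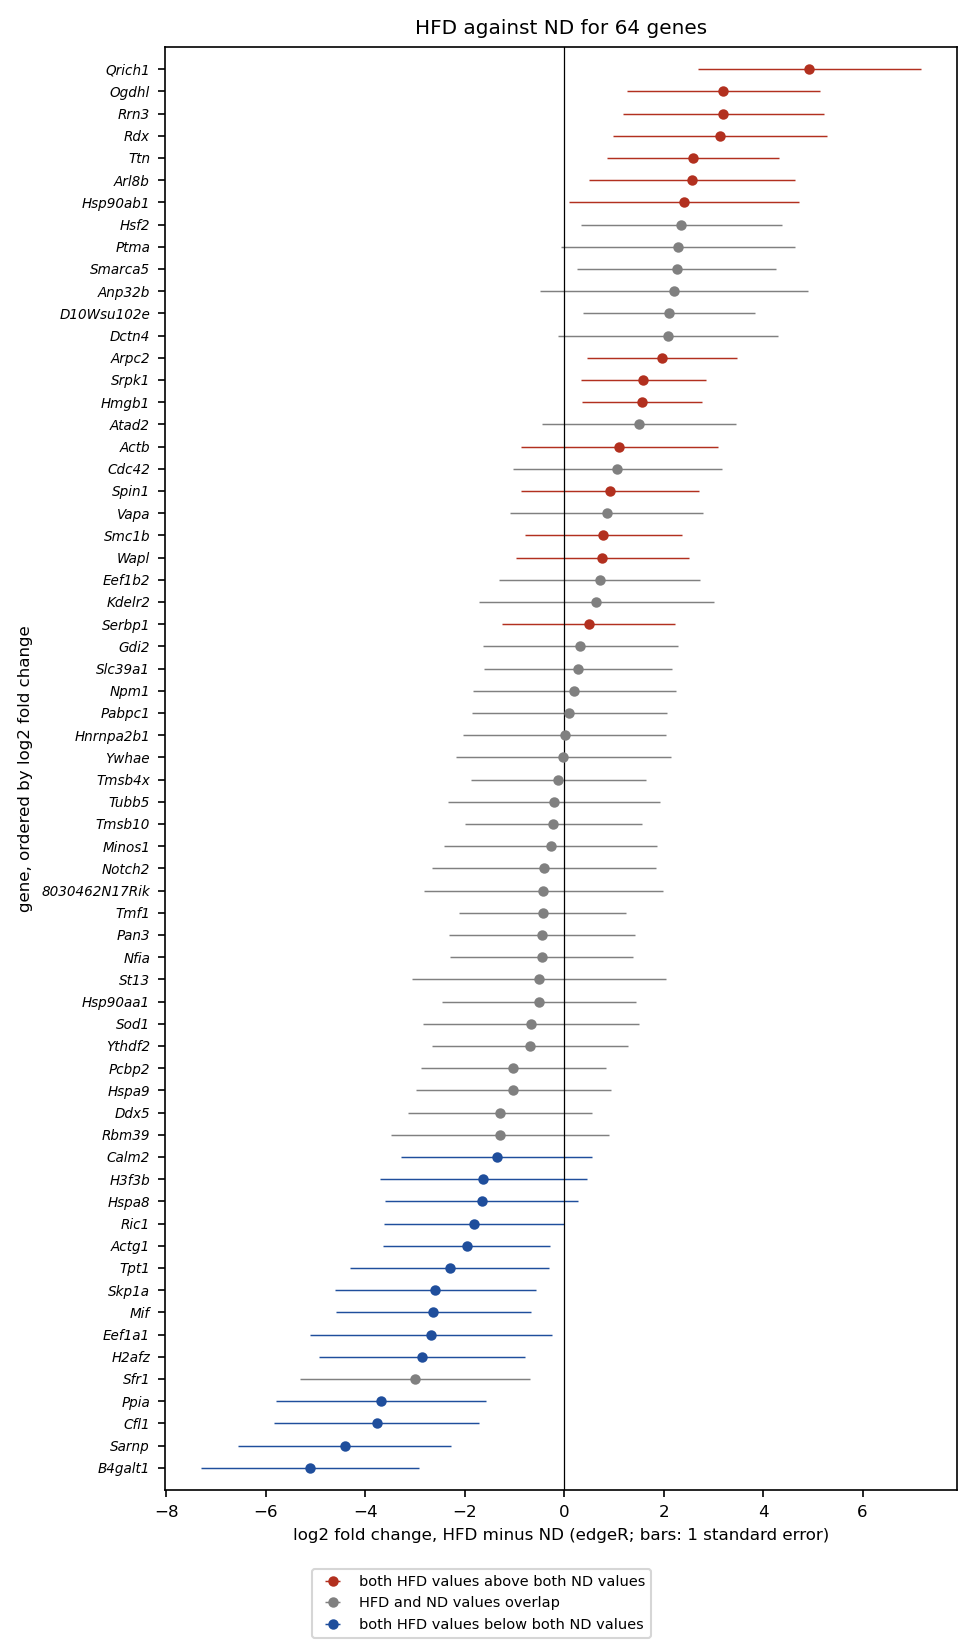
Log2 fold change of HFD against ND from edgeR (horizontal axis) for 64 of the genes (rows, in order of value), with bars of 1 standard error. Red points are the 15 genes plotted with both HFD values above both ND values, blue points the 14 with both below, grey points overlap; the extremes are Qrich1 at 4.93 and B4galt1 at -5.12.

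The call depended on the test. When DESeq2 was run without the filter, 5601 genes received an adjusted p, among them all 66 members. It called 4 members higher in HFD (Ogdhl, Qrich1, Rdx and Rrn3), beside 24.3% of those 5601 genes, and 4 lower (B4galt1, Cfl1, Ppia and Sarnp), beside 21.0%. Limma-voom called no member and no gene, and edgeR's legacy quasi-likelihood fit called 34 genes, none of them a member.

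The actin and HSP90 proteins are encoded by pairs of paralogs of which both were members, and the levels of a pair did not move together. The pairs were picked after their values had been seen, so no test is given. In the actins, Actb had TPM of 1549 and 1532 with ND and 3417 and 4091 with HFD and Actg1 had TPM of 334 and 521 with ND and 122 and 123 with HFD. Actb was higher and Actg1 lower in both HFD libraries, and the ratio of Actb to Actg1 was 4.64 and 2.94 in ND and 28.0 and 33.2 in HFD. The coding sequences of the 2 actins share 30 of 1076 words of 50 bases, the only such overlap between members. With any other gene of the annotation, Actg1 shared 100% of its words and Actb 19.7%, and Hsp90aa1 shared 85.4% and Hsp90ab1 5.23%. How reads with several alignments were treated is not known, and the part of this in the ratios was not tested. In HSP90, Hsp90ab1 had TPM of 249.9 and 1424 with ND and 6357 and 2787 with HFD, and Hsp90aa1 had 939 and 1890.2 with ND and 961 and 1419 with HFD. Hsp90ab1 was the lower of the pair in both ND libraries (ratios of 0.266 and 0.753) and the higher in both HFD libraries (6.62 and 1.96). The thymosins gave ratios of Tmsb10 to Tmsb4x of 11.4 and 1.30 in ND and 2.19 and 4.22 in HFD, and these overlapped. On the edgeR scale, Actb had a log2 fold change of 1.11 (SE 1.98, adjusted p = 0.886), Actg1 a log2 fold change of -1.96 (SE 1.68, adjusted p = 0.680) and Hsp90ab1 a log2 fold change of 2.40 (SE 2.31, adjusted p = 0.726).

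**Figure D4:**
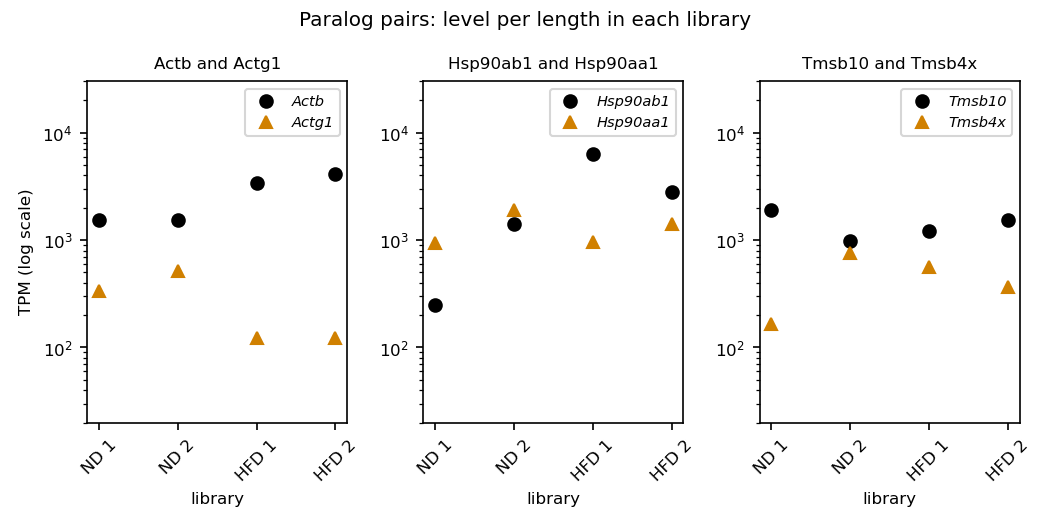
TPM (vertical axis, log scale) in each of the 4 libraries (horizontal axis) for 3 pairs of paralogs, with 1 point per gene and library. Actb stands above Actg1 in every library, by 2.94-fold at the least and 33.2-fold at the most, whereas the order within the HSP90 pair changes between libraries.

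Common reference genes were examined because levels are often scaled to them. Of 16 listed, 5 were members: Actb, Ppia, Eef1a1, Tubb5 and Hsp90ab1. Actb was the most even of these, with normalized CPM of 1932 and 2222 with ND and 5502 and 3446 with HFD and a ratio of the highest to the lowest library of 2.85, yet both HFD values exceeded both ND values. The ratio was 17.2 for Tubb5, 32.8 for Hsp90ab1, 53.9 for Ppia and 118 for Eef1a1. Ppia and Eef1a1 were lower and Hsp90ab1 was higher in both HFD libraries, and Tubb5 overlapped. Gapdh, the glycolytic enzyme used most widely, was not a member, with 666 and 11.8 CPM in ND and 3.56 and 10.5 CPM in HFD. Ywhaz had 799 and 16.0 CPM in ND and 4.65 and 1141 CPM in HFD. Hprt, Tbp, B2m, Sdha, Gusb, Pgk1 and Tfrc also missed the minimum in at least 1 library. Gusb was even, with a ratio of 2.53, at 1.55 to 8.39 CPM.

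Promoter sequence, which the rule did not use, was compared between the members and other protein-coding genes. RefSeq promoter windows, from 250 bases before to 50 after a start (GRCm38.p6), were matched to 50 members with 62 windows, beside 21201 windows of 17442 other protein-coding genes. The observed to expected ratio of CpG was at least 0.6 in 93.5% of the members' windows, in 77.4% of 3362 windows of genes that reached 30 CPM in 1 to 3 libraries, and in 47.5% of all other windows, which include the latter. The letters GGGCGG (either strand, before the start) were in 64.5%, 62.4% and 42.6% of these windows, and CCAAT (either strand, before the start) in 37.1%, 35.2% and 35.4%. TATAAA, read on the gene's strand in the 50 bases before the start, was in 6.45% of the members' windows, 1.22% and 3.16%. Among the 50 members matched, the 4 with TATAAA were Ppia, Ddx5, H3f3b and Sod1. They are shown with the motif in capitals, on the strand of the gene:
Ppia, chr11:6415826-6415855, plus strand: gcccgaaccgggTATAAAggaagccgcggc
Ddx5, chr11:106788507-106788536, minus strand: ggcggtccagacTATAAAagcggctgccgg
H3f3b, chr11:116024514-116024543, minus strand: gtgcagcgtctcTATAAAtatggaggcgtc
Sod1, chr16:90220713-90220742, plus strand: cagactcaggccTATAAAagctccgtggcg
Counted from the RefSeq start, with -1 the base just before it, the motif began at -29 in Ppia, -30 in Ddx5, -27 in H3f3b and -37 in Sod1. In the GENCODE annotation the stretch of Sod1 lies before the gene, those of Ppia and H3f3b lie in an exon of a longer transcript, and that of Ddx5 lies in such an exon for 26 of its 30 bases. The 4 genes had ratios of the highest to the lowest library of 53.9, 4.38, 9.32 and 16.7.

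The letters CCAAT are shown for a pair of even members and a pair with a large difference between the diets, since the motif was found in both kinds:
Wapl, chr14:34673785-34673814, plus strand: cacgcggtccgaCCAATggtggtagccggc
Smc1b, chr15:85132087-85132116, minus strand: cggagcagggatCCAATtccccgggcaacg
Sarnp, chr10:128821658-128821687, plus strand: tccgcgctgtccCCAATcattggttggtta
Cfl1, chr19:5490297-5490326, plus strand: tggtccattgcaCCAATgggctcactctcc
The motif began at -131 in Wapl, -147 in Smc1b, -94 in Sarnp and -146 in Cfl1. These stretches lie before the GENCODE gene, except that of Sarnp, which lies in an intron of a longer transcript. A match of letters is a description and not a binding site.

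**Figure D5:**
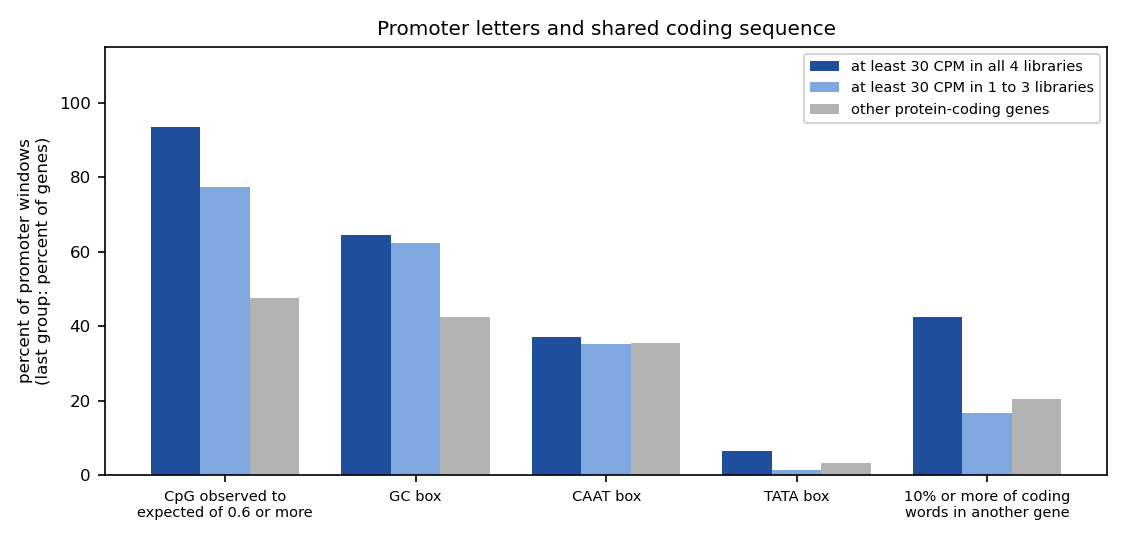
Percent of RefSeq promoter windows (vertical axis) with a CpG ratio of 0.6 or more or with the letters of the GC box (GGGCGG), the CAAT box (CCAAT) or the TATA box, and percent of genes with at least 10% of their coding words in another gene. Dark blue stands for genes with 30 CPM in all 4 libraries (50 of the 66 for promoters, with 62 windows, and 66 for words), light blue for those with 30 CPM in 1 to 3 libraries, and grey for the other protein-coding genes, the light blue ones included (for words, the 19781 eligible by symbol). The dark bars reach 93.5% for the CpG ratio and 42.4% for shared words.

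Near-identical copies were frequent among the members, which bears on how reads are counted. Coding sequences were cut into words of 50 bases, and a word was called shared if another gene of the annotation held it in a transcript. At least 10% of words were shared for 28 members (42.4%), for 16.6% of the 3247 genes with 30 CPM in 1 to 3 libraries and for 20.6% of the 19781 other eligible genes. At least 50% were shared for 13 members (19.7%), beside 6.96% and 7.71%. Actg1, H2afz, Ppia and Tpt1 shared all their words, Hmgb1 98.5%, Sarnp 91.4%, Hspa8 90.7%, Hsp90aa1 85.4%, Mif 84.5%, Npm1 78.4% and Eef1a1 72.6%, mostly with pseudogenes. Counts on the pseudogenes that held words of Hmgb1, 130 in all, came to 119% and 84.9% of the counts on Hmgb1 itself in ND and to 417% and 103% in HFD. For Ppia they came to 7.74% and 3.80% in ND and 9.82% and 27.2% in HFD, and for Hspa8 to between 6.93% and 12.1%. For Sarnp they were at most 0.376% and for Cfl1 at most 1.27%. The levels of Hmgb1 are uncertain for this reason, and those of Ppia and of Eef1a1 (13.0%) in HFD replicate 2 to a lesser degree. How reads with several alignments were treated is not known. A low percent therefore does not show that the level of a gene with many shared words is right. Qrich1 shared 3.02% of its words, and B4galt1, Ogdhl, Rrn3, Rdx, Wapl, Smc1b and Serbp1 shared none. An exon of another gene overlapped an exon of 19 members, beside 29.9% of other eligible genes. The overlapped share of exonic bases was highest in Pcbp2 (36.2%), and it was 16.5% in Cfl1, and reads there cannot be assigned with certainty where the strand setting is unknown.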

How the data were processed

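RNA of sorted E18.5 fetal oocytes was sequenced as 2 ND and 2 HFD libraries. Trimming (Trim Galore), alignment to mm10 (HISAT2) and counting on genes (featureCounts) were done by the authors. The deposited values are whole-number counts per Ensembl gene identifier. The annotation release, strand setting and treatment of reads with several alignments are not given in the sources used here. GENCODE M21 (GRCm38) supplied symbols, coordinates and exon lengths and lists 55141 of 55401 identifiers. The members and lists were chosen with earlier results of these data known, and roles were assigned after the members' names were seen.

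The diets were compared with edgeR 4.0.16 in R 4.3.3 (quasi-likelihood test, legacy FALSE, TMM, filterByExpr, 19335 genes with all 66 members, Benjamini-Hochberg adjustment). Calls needed an adjusted p under 0.05 and a fold change over 1.5. DESeq2 1.42.0, the tool the study used, and limma 3.58.1 were alternatives. A standard error is the absolute log2 fold change divided by the root of the F statistic. Scripts were tested on simulated counts. Library totals ran from 5723605 to 8223255 counts, and 30 CPM corresponds to 172 to 247 counts.

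Named members were the 10 highest in TPM, the 6 most and 6 least even, the 5 in each direction with the largest non-overlapping difference, any with an unadjusted p under 0.05 (0 were found), members of the germ cell and reference gene lists, and the 3 genes on each side of the minimum. Others named under their roles were chosen after their values had been seen. A few genes of the members and lists, 1 of them among the 6 most even, are counted in the totals but not reported here.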

Additional observations from a re-analysis of the deposited data

How the results depend on the processing

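In the comparison of the diets, RLE or library size normalization, the absence of a filter or of a minimum on the fold change, a filter of 10 counts per sample, limma-voom and each library left out in turn called 0 genes and 0 members. DESeq2 on all genes called 2539 genes and 8 members, DESeq2 on the filterByExpr genes called 2102 genes and 4 members (B4galt1, Cfl1, Qrich1 and Sarnp), and the legacy quasi-likelihood fit called 34 genes and 0 members. At an unadjusted p under 0.05, the filter of at least 10 counts gave 3 members (B4galt1, Qrich1 and Sarnp), or 4.55% beside 13.4% of its 9677 genes. DESeq2 on all genes gave 12 (18.2%, beside 6.49% of 49005 genes) and DESeq2 on the filterByExpr genes 6 (9.09%, beside 18.7% of 19335), against 0 in the comparison reported. The 49005 genes include those with very few counts, so 6.49% is not a background for abundant genes. Of the 5601 genes with an adjusted p in that fit, which include all 66 members, 45.3% were called, beside 8 members. The cause of the differences between these settings was not tested. Library size normalization moved the median log2 fold change of all genes from 0.03 to 0.21 and that of the members from -0.07 to -0.21.

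Replicate numbers are shared by the diets in the labels, but nothing says that a number marks a shared litter or batch. Deviations of same-numbered libraries had a correlation of 0.011 over 19335 genes and of 0.173 over the 66 members, with 2 pairs only. With the replicate number as a block, edgeR called 0 genes and 0 members, 0 members had an unadjusted p under 0.05, and the median log2 fold change of the members was -0.10.

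With 1 library left out in turn, the median log2 fold change of the members ran from -1.18 (without HFD replicate 1) to 0.63 (without HFD replicate 2), being 0.27 and 0.28 without ND replicate 1 and 2. Of the 64 members shown, 34 held their direction in every alternative. Among these are the 15 with both HFD values above both ND values and the 14 with both below. For such genes, leaving out 1 library could hardly turn the direction, so the count is not a separate sign of stability. The other 30 turned with a library left out. Their log2 fold changes then ranged as follows: 8030462N17Rik (-5.93 to 0.62), Anp32b (-2.98 to 5.54), Atad2 (-2.05 to 2.49), Cdc42 (-1.86 to 2.03), D10Wsu102e (-0.15 to 2.99), Dctn4 (-1.03 to 3.06), Eef1b2 (-1.24 to 1.57), Gdi2 (-0.42 to 1.96), Hnrnpa2b1 (-2.05 to 1.56), Hsf2 (-1.39 to 3.36), Hsp90aa1 (-0.999 to 0.25), Kdelr2 (-4.45 to 1.68), Minos1 (-1.20 to 3.07), Nfia (-1.27 to 1.65), Notch2 (-4.72 to 1.08), Npm1 (-0.91 to 1.05), Pabpc1 (-2.15 to 0.998), Pan3 (-2.60 to 1.17), Rbm39 (-2.25 to 3.02), Slc39a1 (-1.67 to 1.51), Smarca5 (-0.54 to 3.21), Sod1 (-3.46 to 0.42), St13 (-5.21 to 3.56), Tmf1 (-1.45 to 0.21), Tmsb10 (-0.54 to 0.19), Tmsb4x (-1.08 to 1.57), Tubb5 (-3.39 to 0.77), Vapa (-0.036 to 3.38), Ythdf2 (-2.45 to 0.75) and Ywhae (-3.40 to 1.33). Of these, 9 also turned in other alternatives: with library size normalization Hnrnpa2b1 to -0.27, Pabpc1 to -0.21, Slc39a1 to -0.051, with no filter Hnrnpa2b1 to -0.090, with the filter of 10 counts Hnrnpa2b1 to -0.15, Pabpc1 to -0.071, with DESeq2 on all genes Hnrnpa2b1 to -0.089, with limma-voom Hnrnpa2b1 to -0.15, Kdelr2 to -1.10, Minos1 to 0.90, Nfia to 0.20, Pabpc1 to -0.42, Rbm39 to 0.30, Tmsb4x to 0.18, with the replicate block Hnrnpa2b1 to -0.22, Kdelr2 to -1.32, Minos1 to 0.93, Nfia to 0.18, Pabpc1 to -0.52, Rbm39 to 0.30, Slc39a1 to -0.0045, Tmsb4x to 0.14, with RLE normalization Ywhae to 0.042, with DESeq2 on the filterByExpr genes Ywhae to 0.042.

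The rule itself gave 91 members at 20 CPM, 50 at 50 CPM, 67 at 30 normalized CPM (62 of them the same genes), 48 at 30 TPM (47 the same), 116 with no symbol left out, and 100 to 130 when 1 library was ignored. The median ratio of the highest to the lowest library was 15.1 at 20 CPM, 9.08 at 50 CPM and at 30 TPM, 10.1 at 30 normalized CPM, 9.58 in CPM per library total, and 5.74 (without HFD replicate 1) to 8.12 (without ND replicate 2) with 3 libraries, over a ratio of fewer values. The mean share of counts held, 6.10%, became 5.01% at 50 CPM, 5.12% at 30 TPM and 7.57% to 9.63% with 3 libraries. With 2 pools per diet, differences under the spread between pools were not detectable, and edgeR did not call larger ones either. For Sarnp, the ND pools were 1.43-fold and the HFD pools 1.69-fold apart, at a log2 fold change of -4.42 (adjusted p = 0.415 by edgeR).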
